A study of Zea mays with 10 samples.

Results

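In maize male germ cells at prophase I, 44 gene models stood at least 3-fold lower in the male-sterile mutant ms28 than in the inbred line B73, while their mean levels in whole anthers of the same stage lay within a factor of 2. They were picked by level in TPM, a unit that gives each gene model's share of a library's RNA and keeps no read depth, from the 22402 features listed for both anthers and germ cells. Both B73 germ cell libraries had to read 5 TPM or more, and the lower of them at least 3 times the higher ms28 germ cell library. In anthers the ms28 and B73 means both had to reach 3 TPM, with an ms28/B73 ratio of means between 0.5 and 2. Gene models numbered Zm00001d012786 to Zm00001d013188, a stretch with clustered ms28 changes, were left out. The ms28 differences in germ cells and in anthers therefore chose the members, and they are given below as a description, without a test.

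Grass anthers make large amounts of phased small RNAs (phasiRNAs), which are cut in register from long non-coding transcripts and bound by Argonaute proteins. Argonautes use the bound small RNA to find matching transcripts. Earlier work in maize placed the ms28 lesion in an Argonaute gene, given here as background. Prophase I is the stage of meiosis in which homologous chromosomes pair and recombine. At that stage the germ cells lie inside a wall of somatic layers, of which the tapetum feeds them, so that a whole anther is mostly a measure of its somatic cells.

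The series measured RNA in 10 libraries, 2 in each of 5 groups. The groups were male germ cells of ms28 and of B73, taken at prophase I, whole anthers at prophase I from ms28 and from B73, and whole B73 anthers before meiosis. The labels give a field and a greenhouse as growth sites without tying either to a library. They do not state whether ms28 was bred into B73, how the germ cells were isolated or whether replicates were separate plants. The mutation and other differences between the lines therefore cannot be told apart, and error estimates measure only the spread between these libraries. Depth is unknown, and libraries of this Smart-seq type do not mark strand, so that reads of overlapping antisense transcripts cannot be told apart. Gene models carry an identifier only. The reference gene table, of another assembly, matched 0 of the 44 members, so no gene name, role, sequence or position is given, cell type markers and the mutated locus were not looked up by name, and the labelled tissues were not checked by markers.

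Of the 22125 gene models in both prophase I tables outside the excluded stretch, 10286 met the floors on B73 germ cells and on both anther groups. These 10286 are called floor models below and serve as the comparison for the members. The germ cell fold was met by 82 of them, or 0.797%. By the anther ratio these 82 divided into the 44 members, 38 with a ratio under 0.5 and 0 with a ratio over 2. A further 37 gene models met the germ cell fold with an anther mean under 3 TPM, and 28 of these had a B73 anther mean at or above it. Another 129 gene models met every other condition with a germ cell fold between 2 and 3. The members are thus the upper end of a continuous range rather than a separate class. Just inside the limit, Zm00001d008226 read 8.96 and 9.16 TPM in ms28 germ cells and 38.2 and 27.7 TPM in B73 germ cells, and Zm00001d003877 read 6.94 and 8.90 TPM in ms28 and 26.9 and 41.7 TPM in B73. Just outside it, Zm00001d020067 read 5.23 and 4.71 TPM in ms28 and 15.5 and 23.4 TPM in B73, and Zm00001d015404 read 2.28 and 5.002 TPM in ms28 and 14.8 and 22.8 TPM in B73.

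**Figure D1:**
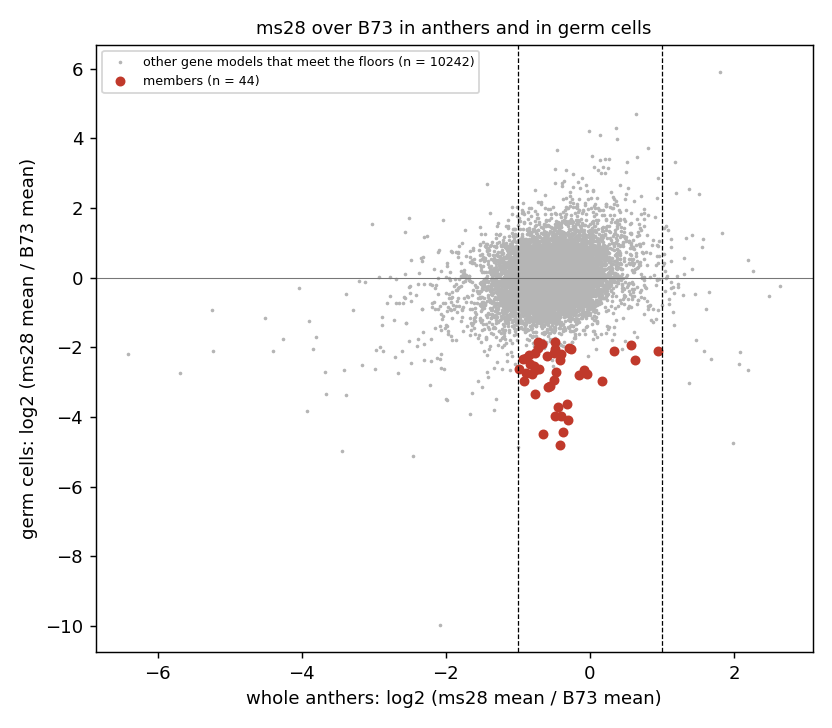
Log2 ratio of the ms28 mean to the B73 mean in germ cells (vertical) against the same ratio in whole anthers (horizontal), for the 44 members (red) and the other floor models (grey). Dashed lines mark anther ratios of 0.5 and 2, between which the members were picked, and the members lie below the dense part of the cloud with no gap above them.

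In germ cells the members were low but still present in ms28. Summed over the 44 gene models, they held 438 and 455 TPM in the ms28 germ cell libraries and 2546 and 2770 TPM in the B73 germ cell libraries (447 ± 12.1 and 2658 ± 159 TPM, SD, n = 2 each). A few members made up much of these sums. Without Zm00001d019247, Zm00001d003231 and Zm00001d042642, the highest in B73 germ cells, they were 254 and 283 TPM in ms28 and 1223 and 1585 TPM in B73. The median member read 3.41 and 4.29 TPM in ms28 and 17.4 and 28.2 TPM in B73. In ms28 germ cells 24 of the 44 were under 5 TPM in both libraries, and none of the 44 was listed at 0 in either. The B73 mean was between 3.62 and 27.9 times the ms28 mean, with a median of 6.14, and 9 members reached 10-fold. In bulk RNA such as this, fewer cells of a type and less RNA of a gene per cell cannot be told apart.

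Zm00001d036272 had the largest fold, with 0.516 and 0.668 TPM in ms28 germ cells and 13.5 and 19.6 TPM in B73 germ cells. Its anther values were 13.8 and 10.4 TPM in ms28 and 17.3 and 14.8 TPM in B73. The B73 levels of this gene model were therefore alike in germ cells and in anthers, and the ms28 germ cell libraries alone stood far below. Zm00001d016393 read 0.868 and 1.01 TPM in ms28 germ cells and 11.8 and 29.2 TPM in B73 germ cells, beside 14.8 and 8.75 TPM in ms28 anthers and 16.6 and 13.9 TPM in B73 anthers. Zm00001d052091 read 0.470 and 1.08 TPM in ms28 germ cells and 8.25 and 18.3 TPM in B73 germ cells, with 13.3 and 7.26 TPM in ms28 anthers and 16.6 and 8.76 TPM in B73 anthers. In both, the 2 B73 germ cell libraries lay more than 2-fold apart, and the anther libraries of ms28 and B73 overlapped. On the log2(TPM + 1) scale the differences between ms28 and B73 germ cells were -3.44 (SE 0.26) for Zm00001d036272, -3.34 (SE 0.41) for Zm00001d016393 and -2.94 (SE 0.45) for Zm00001d052091, with SEs from a limma fit over all 8 prophase I libraries.

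The most abundant members behaved differently among themselves. Zm00001d019247, the highest in B73 germ cells and also among the 4 with the largest fold between the nearest ms28 and B73 libraries, read 59.8 and 59.1 TPM in ms28 germ cells and 664 and 553 TPM in B73 germ cells. In anthers it read 74.2 and 88.6 TPM in ms28 and 170 and 107 TPM in B73, which did not overlap. Zm00001d003231 read 65.7 and 60.3 TPM in ms28 germ cells and 443 and 353 TPM in B73 germ cells. Its anther values of 192 and 147 TPM in ms28 and 225 and 134 TPM in B73 overlapped, with a ratio of means of 0.942. Of the members at 10 TPM or more in both B73 tissues, this one and Zm00001d036270, at 1.13, had the anther ratios nearest 1. Zm00001d042642 read 58.3 and 52.6 TPM in ms28 germ cells and 216 and 279 TPM in B73 germ cells, and Zm00001d019966 read 54.3 and 49.6 TPM in ms28 and 250 and 172 TPM in B73. All 4 thus lay between 49.6 and 65.7 TPM in ms28 germ cells, although their B73 means lay between 211 and 609 TPM. In all, 7 members averaged 100 TPM or more in B73 germ cells, 18 averaged 20 to under 100 TPM, and 19 averaged under 20 TPM.

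**Figure D2:**
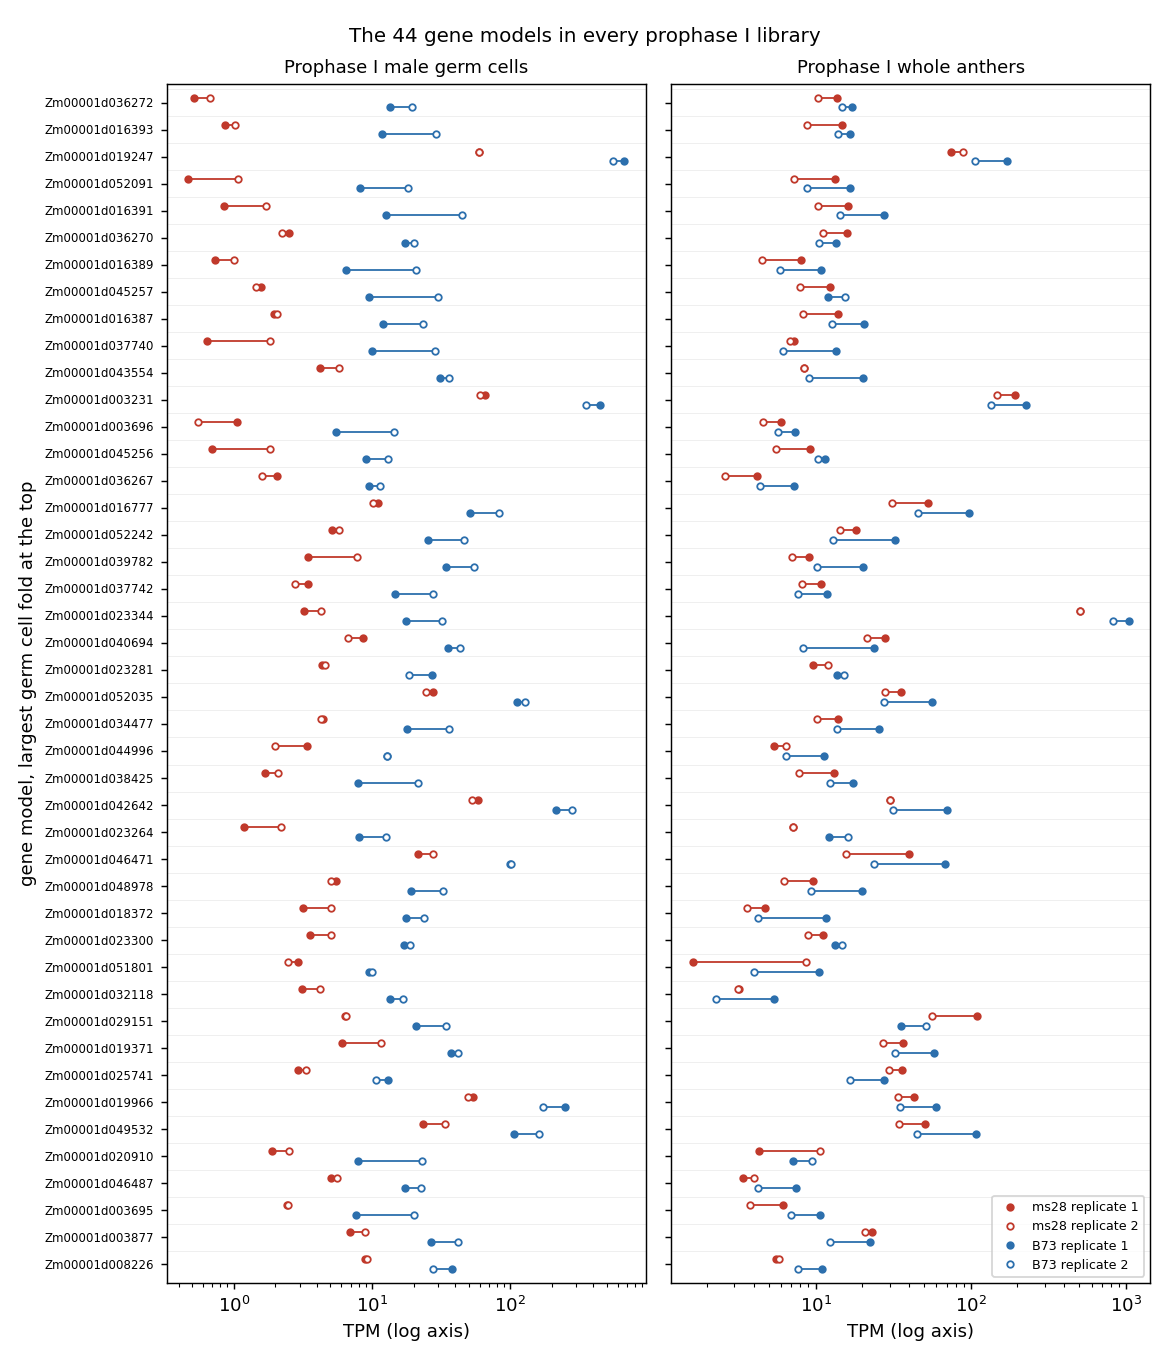
TPM of each of the 44 members (rows, largest germ cell fold at the top) in every prophase I library, germ cells on the left and whole anthers on the right, on log axes. Red marks ms28 and blue marks B73, filled points are replicate 1 and open points replicate 2, and a line joins the libraries of a group. The groups stand apart in germ cells, as the choice of members requires. In anthers they overlap for 27 of the 44, where the rule held the ratio of means in a window, so nothing is read from this count. Among floor models both ms28 anther libraries were below both B73 libraries for 70.2% and above both for 3.33%.

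In anthers the members held 1539 and 1292 TPM in the ms28 libraries and 2501 and 1685 TPM in the B73 libraries. Of these sums Zm00001d023344 alone held 505 and 502 TPM in ms28 and 1042 and 823 TPM in B73. Most anther ratios lay somewhat below 1 in TPM, 39 of 44 with a median of 0.710, but 13 of 44 after each library was divided by the level of its median feature. The floor models had a median ratio of 0.696. Both ms28 anther libraries were below both B73 anther libraries for 15 members, beside 70.2% of floor models, and above them for 2 members, beside 3.33%. The rule holds the anther ratio in a window, so nothing is read from these shares or from the nearness of the medians. For many members the direction depends on the scaling. On that centred scale the median anther ratio of the members was 1.17 (floor models 1.13) and the median germ cell ratio 0.152 (floor models 0.888). Of the 44 members, 40 still met the rule after centring. The other 4, Zm00001d003877, Zm00001d025741, Zm00001d029151 and Zm00001d040694, had centred anther ratios between 2.09 and 3.04, and Zm00001d029151 and Zm00001d040694 are named after their values were seen. The 2 B73 anther libraries differed too: 38 members were higher in replicate 1 than in replicate 2, with a median ratio of 1.72, beside 72.3% of floor models and a median ratio of 1.17. Without B73 anther replicate 2, 27 of the 44 kept their place, and 41 kept it without replicate 1.

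The rule did not use the premeiotic anthers, and there the members stood apart from other gene models. No source used here gives the unit of the premeiotic table, so gene models were compared by percentile rank over the 25412 features listed for both premeiotic and prophase I anthers. The median member ranked at the 65.0th percentile in B73 prophase I anthers and at the 6.85th in B73 premeiotic anthers. For floor models the medians were the 76.5th and the 76.4th. In both premeiotic libraries 30 of the 44 members lay under the 25th percentile, beside 1.80% of floor models, and 10 were listed at 0 in both, beside 0.214%. Of the 22 floor models listed at 0 in both premeiotic libraries, 10 were thus members. At least 50 percentile points separated the lower B73 prophase I anther library from the higher premeiotic library for 20 members, beside 1.30% of floor models and 0.716% of all ranked features. The floors alone shift these ranks, since 23.6% of all ranked features lay under the 25th percentile in both premeiotic libraries, so the floor models are the closer comparison. The ranks rest on 2 libraries a stage, and no test was made between the separately processed tables.

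Zm00001d016393 and Zm00001d016391, of the 10 members tied at 0 before meiosis, ranked at the 66.2nd and 66.9th and at the 76.8th and 67.7th percentiles in the B73 prophase I anther libraries. Of the 4 members highest in B73 germ cells Zm00001d003231 moved furthest, to the 96.9th and 95.4th percentiles in prophase I anthers, against the 13.5th and 17.2nd before meiosis. At the other end, 8 members were at or above the 50th percentile in both premeiotic libraries. Zm00001d023344 ranked highest before meiosis, with the 99.7th and 99.4th percentiles in prophase I anthers and the 98.7th and 96.9th in premeiotic anthers. Zm00001d020910, next before meiosis, ranked lower in prophase I anthers, at the 46.5th and 58.2nd percentiles, against the 86.5th and 86.4th in premeiotic anthers. The members are thus mostly, but not all, transcripts that were near the bottom of the anther ranking before meiosis and in its upper part at prophase I.

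**Figure D3:**
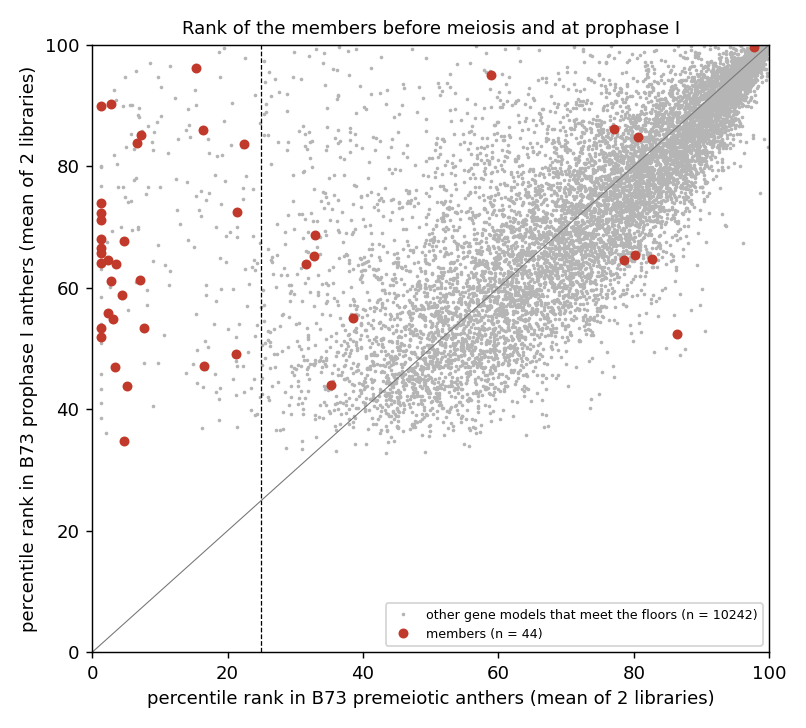
Percentile rank in B73 prophase I anthers (vertical) against the rank in B73 premeiotic anthers (horizontal), each the mean of 2 libraries, for the 44 members (red) and the other floor models (grey). Most members lie left of the dashed line at a mean rank of the 25th percentile, and a few follow the diagonal on which most floor models lie. The share of 1.80% of floor models in the text is for ranks under the 25th percentile in both libraries, which is stricter than the line.

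The same relation was looked at from the other side, by grouping floor models by their premeiotic rank alone. Of the 185 floor models under the 25th percentile in both premeiotic libraries, 40 (21.6%) met the germ cell fold, against 42 of the other 10101 (0.416%). The members made up 30 of those 40. The other 10 met the fold with an anther ratio under 0.5. Both ms28 germ cell libraries were below both B73 germ cell libraries for 123 of the 185 (66.5%), against 34.3% of the other floor models, and the median ratio of ms28 to B73 germ cell means was 0.515, against 0.970. The rule fixed ms28 below B73 in germ cells for the 30 members among the 185, and they also lower the median of 0.515. Among the 155 that were not members the median ratio was 0.647. Both ms28 germ cell libraries were below both B73 libraries for 93 of these 155 and above both for 31. In anthers, these 155 had a median ms28/B73 ratio of 0.594, and the 30 members a median of 0.718. The B73 anther libraries differed for these low-ranked gene models, with a median ratio of replicate 1 to replicate 2 of 2.41 over the 185, against 1.16 for the other floor models. The part of that library difference in the anther ratios was not tested.

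**Figure D4:**
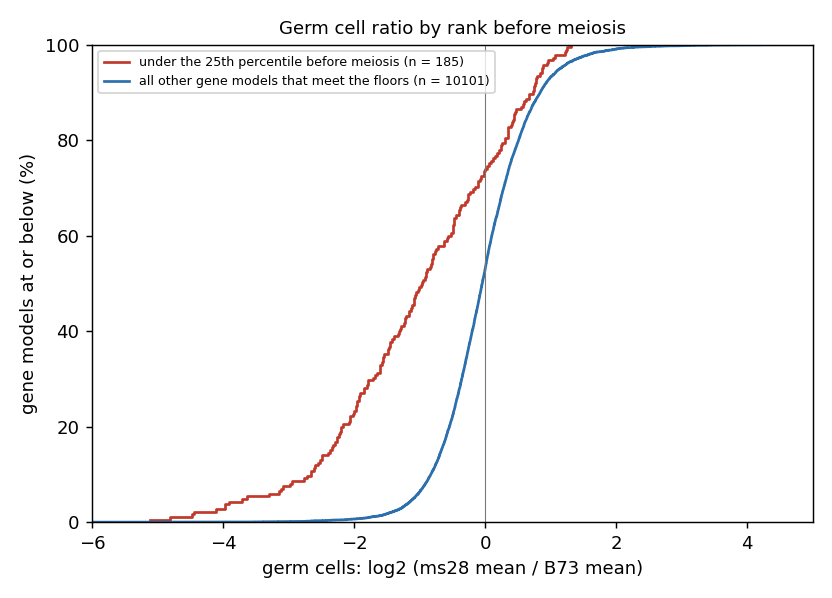
Cumulative share of floor models (vertical, in percent) at or below a given log2 ratio of ms28 to B73 germ cell means (horizontal), for the 185 under the 25th percentile in both premeiotic libraries (red) and the other 10101 (blue). The red curve lies to the left over most of its range, with medians of 0.515 and 0.970 as ratios, and it includes 30 of the 44 members.

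The 2 related sets of gene models ranked differently before meiosis. Of the 38 floor models that met the germ cell fold with an anther ratio under 0.5, 10 (26.3%) were under the 25th percentile in both premeiotic libraries, beside 30 of the 44 members (68.2%). Of the 222 gene models that were at least 3-fold higher in ms28 germ cells under the mirrored germ cell rule and the same anther window, 7 (3.15%) were. These sets were formed from the same germ cell libraries, and the differences between them were not tested.

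Some members stood close together in the numbering of the gene models. Within 5 numbers of another member lay 13 of the 44, in 5 runs, beside 0.943% of floor models that lay within 5 numbers of a member. Zm00001d016387, Zm00001d016389, Zm00001d016391 and Zm00001d016393 formed the longest run. Zm00001d036267, Zm00001d036270 and Zm00001d036272 formed another, and the pairs were Zm00001d045256 with Zm00001d045257, Zm00001d003695 with Zm00001d003696, and Zm00001d037740 with Zm00001d037742. Zm00001d036267, Zm00001d037742 and Zm00001d003695 are named after their values were seen, to complete their runs, as are the neighbours below that are not members. Whether neighbours in number are neighbours on a chromosome was not looked up here. If the members of a run are near-identical copies, reads could be shared between them, and their separate levels would be uncertain.

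Within the run of 4, Zm00001d016391 read 0.856 and 1.71 TPM in ms28 germ cells and 12.6 and 44.7 TPM in B73 germ cells. Zm00001d016389 read 0.731 and 1.002 TPM in ms28 and 6.504 and 20.7 TPM in B73, and Zm00001d016387 read 1.94 and 2.07 TPM in ms28 and 11.95 and 23.5 TPM in B73. Together with Zm00001d016393 all 4 were listed at 0 in both premeiotic libraries, and all 4 were higher in B73 germ cell replicate 2 than in replicate 1. The gene model numbered between the first 2 of them, Zm00001d016388, went the other way, with 36.0 and 21.2 TPM in ms28 germ cells and 9.77 and 18.1 TPM in B73 germ cells. It was not at 0 in either premeiotic library.

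In the run of 3, Zm00001d036270 read 2.498 and 2.24 TPM in ms28 germ cells and 17.4 and 20.1 TPM in B73 germ cells, and Zm00001d036267 read 2.05 and 1.60 TPM in ms28 and 9.52 and 11.5 TPM in B73. Here the B73 germ cell libraries lay close together. The next gene models in the germ cell table, Zm00001d036274 and Zm00001d036275, read 54.7 and 52.8 TPM and 10.3 and 12.3 TPM in ms28 germ cells, against 48.4 and 43.6 TPM and 13.3 and 15.1 TPM in B73 germ cells. Neither neighbour met the fold.

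The pair Zm00001d045257 and Zm00001d045256 read 1.56 and 1.45 TPM and 0.699 and 1.83 TPM in ms28 germ cells, against 9.45 and 29.8 TPM and 9.01 and 13.0 TPM in B73 germ cells. The adjoining Zm00001d045258 stood just short of the rule, with 7.65 and 7.12 TPM in ms28 and 20.3 and 30.8 TPM in B73, a fold of 2.65. Zm00001d045254, on the other side, was higher in ms28 germ cells, at 77.8 and 92.3 TPM against 9.67 and 4.91 TPM in B73. In the pair from Zm00001d037740, that gene model read 0.644 and 1.82 TPM in ms28 and 9.96 and 28.8 TPM in B73, and Zm00001d037742 read 3.46 and 2.78 TPM in ms28 and 14.7 and 27.7 TPM in B73. Between them Zm00001d037741 read 0.752 and 0.149 TPM in ms28 and 1.84 and 4.31 TPM in B73, under the floor. Zm00001d003696 read 1.06 and 0.549 TPM in ms28 and 5.54 and 14.5 TPM in B73, and Zm00001d003695 read 2.43 and 2.48 TPM in ms28 and 7.62 and 20.01 TPM in B73.

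All 13 members of the runs were under the 25th percentile in both premeiotic libraries, beside 30 of the 44 members in total, a count that includes these 13. The run members had a median germ cell fold between the nearest libraries of 5.76, against 3.66 for the 31 members outside runs. Their median B73 germ cell mean was 17.7 TPM, against 27.4 TPM. The rule used both the fold and the B73 germ cell levels, so these medians are a description. Of the other gene models in the germ cell table within 5 numbers of the runs, 0 met the germ cell fold in any of the 5 runs, beside 0.797% of floor models, so nothing is read from that count. Zm00001d016388 and Zm00001d037741 were the gene models of that table numbered between members, and some neighbours, such as Zm00001d037741, Zm00001d045258 and Zm00001d003701, had the same direction as the members without meeting the rule.

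**Figure D5:**
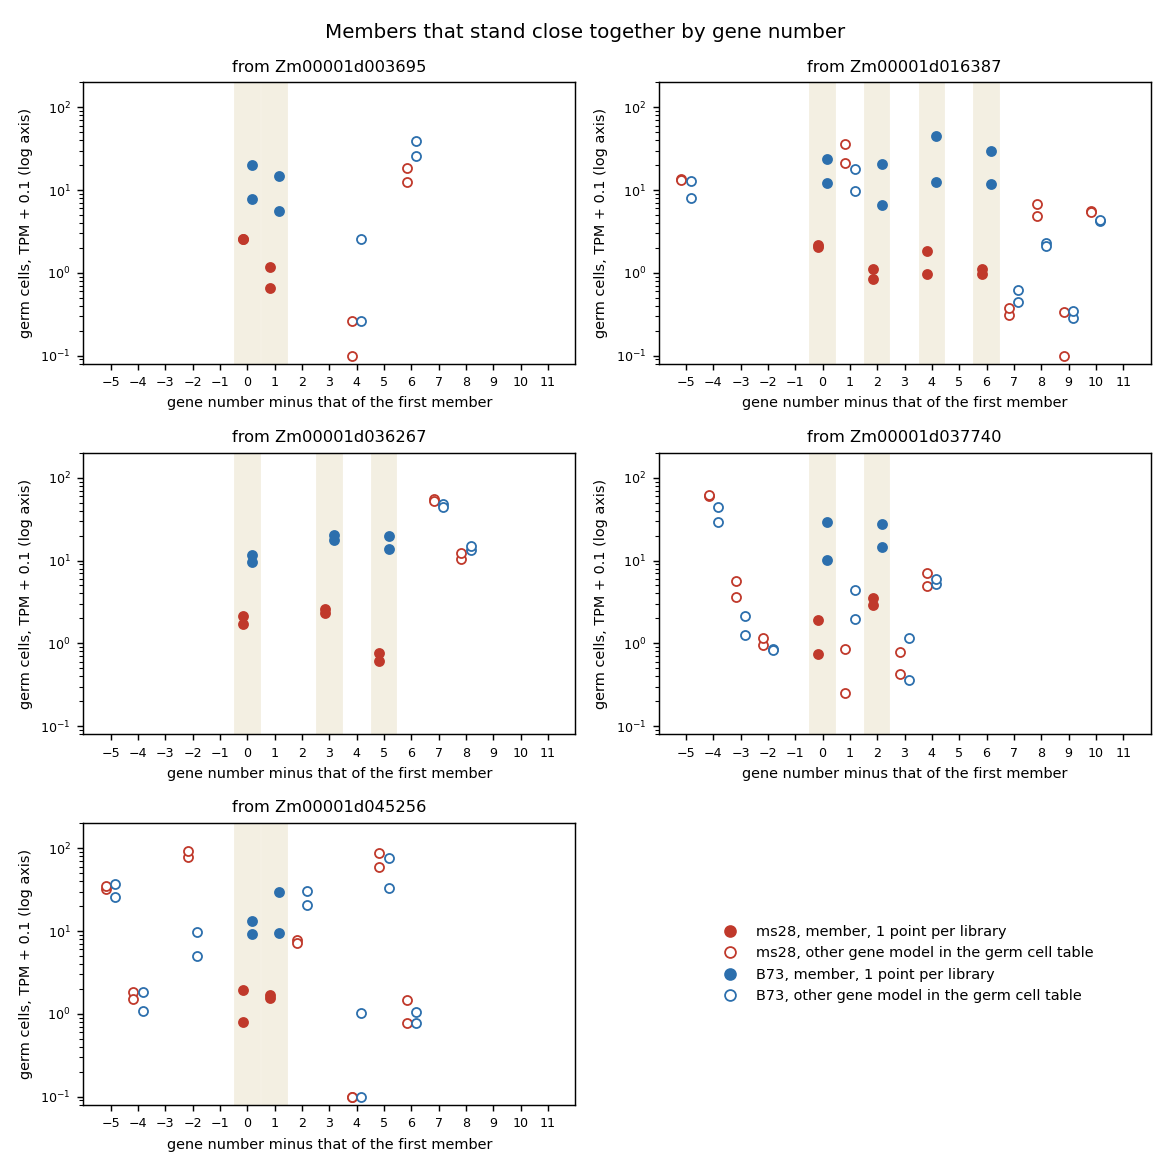
Germ cell TPM + 0.1 (vertical, log axis) of the gene models in the germ cell table, against gene number counted from the first member of each of the 5 runs (horizontal). Red is ms28 and blue B73, with 1 point per library; filled points on shaded columns are members and open points other gene models. The members show ms28 below B73 in every run, as their choice requires, while the other gene models vary in direction.

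A wider group in the numbering differed from these runs. Zm00001d023264, Zm00001d023281, Zm00001d023300 and Zm00001d023344 lay within 1 stretch of numbers, which was picked out after its values were seen. All 4 were at or above the 50th percentile in both premeiotic libraries, as were 4 other members. The stretch from the first to the last held 14 floor models, of which 5 met the germ cell fold, beside 0.797% of all floor models, and 11 had both ms28 germ cell libraries below both B73 libraries, beside 34.9%. The 10 that were not members had a median germ cell ratio of 0.597, and all floor models one of 0.966. Since the stretch was picked for its members, these shares are a description. Zm00001d023264 read 1.18 and 2.19 TPM in ms28 germ cells and 8.01 and 12.7 TPM in B73 germ cells. Zm00001d023281 read 4.38 and 4.55 TPM in ms28 and 27.3 and 18.6 TPM in B73, and Zm00001d023300 read 3.58 and 5.09 TPM in ms28 and 17.0 and 18.7 TPM in B73.

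The B73 germ cell libraries did not read the members alike. Replicate 2 was above replicate 1 for 37 of the 44, beside 47.8% of floor models, and at least 2 times as high for 11, beside 3.42%. The same was not particular to the members. Of the 38 floor models that met the germ cell fold with an anther ratio under 0.5, 11 (28.9%) were at least 2 times as high, with a median ratio of 1.42. The median ratio of replicate 2 to replicate 1 was 1.48 for the members and 0.984 for floor models. In ms28 germ cells that ratio was 1.12 for the members and 0.994 for floor models. Of the members low before meiosis, 10 of 30 were at least 2 times as high in replicate 2, against 1 of the other 14. Among floor models low before meiosis that were not members the share was 7.10%. The runs of close numbers held 7 of the 11, and all 13 run members were low before meiosis. Their median ratio of replicate 2 to replicate 1 was 2.49, against 1.29 for the 31 members outside runs. The rule takes the lower B73 library, so for most members replicate 1 set the fold. Without B73 germ cell replicate 1 the rule gave 121 gene models in place of 44. Without ms28 germ cell replicate 2 it gave 119, and without either of the other germ cell libraries it gave 56. All 44 members are among the gene models so picked, by construction of the rule, and these counts say nothing of how stable the difference is.

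Within B73 the members were next compared between germ cells and whole anthers, a contrast the rule did not use, although it set floors on these levels and picked members partly for high B73 germ cell values. In a limma fit over 20892 features, 15 of the 44 members were higher in B73 germ cells than in B73 anthers at a Benjamini-Hochberg adjusted p under 0.05, 2 were lower and 27 were not called. Over all features fitted 27.0% were called higher and 41.2% lower, and over floor models 38.8% and 24.1%. The share of members called higher was thus near that of floor models, and the share called lower, 4.55%, was smaller. Their median log2 difference was 0.60, against 0.28 for floor models. Since the rule picked partly for high B73 germ cell values, nothing is read from the smaller share or the higher median. The count of higher members was 8 without B73 anther replicate 2, 9 without B73 germ cell replicate 2 and 24 on the centred scale. Germ cells and anthers were listed in separately filtered tables, so table and tissue cannot be told apart.

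The largest tissue differences in the germ cell direction were those of Zm00001d042642, with 216 and 279 TPM in B73 germ cells and 70.2 and 31.6 TPM in B73 anthers (log2 2.35, SE 0.34, limma adjusted p = 0.00047), and Zm00001d019247 (log2 2.16, SE 0.25, limma adjusted p = 0.00019). In these the 2 germ cell libraries lay above both anther libraries. The 2 members called lower were Zm00001d023344 and Zm00001d025741. Zm00001d023344 read 3.22 and 4.26 TPM in ms28 germ cells and 505 and 502 TPM in ms28 anthers. In B73 it read 17.6 and 32.1 TPM in germ cells and 1042 and 823 TPM in anthers (log2 -5.22, SE 0.29, limma adjusted p = 2e-05). The anther mean was thus 135 times the germ cell mean in ms28 and 37.5 times in B73, where the other members reached 1.87 times at most. The amount of anther wall RNA in each germ cell library was not measured here, and its part in this difference was not tested. Zm00001d025741 read 13.1 and 10.7 TPM in B73 germ cells and 27.6 and 16.7 TPM in B73 anthers (log2 -0.81, SE 0.27, limma adjusted p = 0.026). It was no longer called by limma on the centred scale (adjusted p = 0.18) or in a fit of the B73 libraries alone (adjusted p = 0.068). With 1 B73 library left out, its log2 difference lay between -1.16 (without anther replicate 2) and -0.47 (without anther replicate 1).

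The 4 members with the largest ms28 fold between the nearest libraries differed in their B73 tissue difference. Zm00001d019247 was called higher in germ cells, as given above. Zm00001d036272, Zm00001d016393 and Zm00001d052091 had log2 tissue differences of 0.02 (SE 0.26), 0.28 (SE 0.41) and 0.03 (SE 0.45). None of these 3 was called by limma (adjusted p from 0.56 to 0.96). In ms28, 39 of the 44 members had a lower mean in germ cells than in anthers, and in B73 37 had a higher one. The median ratio of germ cell to anther means was 0.347 in ms28 and 1.59 in B73. Floor models had a median ratio of 1.64 in ms28 and 1.22 in B73. The order of the tissues in ms28 follows from the values that chose the members, so it adds no separate observation.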

How the data were processed

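Of the 3 deposited tables, 2 held TPM values by the authors for prophase I anthers (25460 features) and male germ cells (22786 features), read as TPM because each column summed to between 99.1 and 99.4% of 1000000. The deposited premeiotic values (43789 features) are a score of unknown unit and were used as ranks, with 1 value below 0 set to 0. Per the submitters' processing notes, Trimmomatic 0.33, HISAT2 2.2.1, Cufflinks, featureCounts 2.0.1, DESeq2 and the build B73 RefGen_v4 were used, with no role given. Columns were matched through genotype and replicate in the headers and the tissue and stage of each table, with WT read as B73.

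A filter of 1 TPM in any 2 libraries left 20892 features, fitted on log2(TPM + 1) with limma-trend 3.58.1 in R 4.3.3, over 8 libraries with a mean for each group and replicate numbers not used. On simulated data for the contrast between B73 tissues, with 20892 features and 50 planted per size, it recovered 16% at a log2 change of -1 and 92% at -2, with 14 false calls. No other feature differed between the simulated tissues, while 27.0% were called higher and 41.2% lower in the data. The recovered shares therefore do not give the sensitivity of the fit to the data. Python 3.11.15, pandas 2.3.3, numpy 2.4.6 and matplotlib 3.10.9 did the rest. The members, lists and comparisons were chosen with earlier results of these data known. Named were the members with the largest germ cell folds, the highest B73 germ cell means, the extremes of tissue difference and premeiotic rank, those with an anther ratio nearest 1, those nearest the fold limit, and up to 10 close to another member in number. The planned lists of cell type markers could not be applied, since no source used here pairs their symbols with these gene models. Alternatives covered thresholds, scaling, pseudocount, filter, replicate block and leaving out each library.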

Additional observations from a re-analysis of the deposited data

Results flagged for a closer look

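In 2 members the ms28 libraries moved in opposite directions in the tissues: both were below both B73 libraries in germ cells and above both in anthers. These 2 of 44 stand beside 3.33% of floor models above both B73 libraries in anthers, so the count itself is near the background. For many members the anther direction depends on the scaling: 5 of the 44 had an anther ratio above 1 in TPM, and 31 after each library was divided by its median feature. The 2 flagged members were above 1 on both scales. Their centred anther ratios were 2.47 for Zm00001d025741 and 3.04 for Zm00001d029151, outside the window of the rule. The germ cell direction was fixed by the choice of members, and the difference between the tissues was not tested. Zm00001d025741 read 36.2 and 29.8 TPM in ms28 anthers and 27.6 and 16.7 TPM in B73 anthers, a ratio of means of 1.491. In germ cells it read 2.91 and 3.35 TPM in ms28 and 13.1 and 10.7 TPM in B73. Zm00001d029151 read 110 and 56.7 TPM in ms28 anthers and 35.7 and 51.3 TPM in B73 anthers, a ratio of 1.918. In germ cells it read 6.34 and 6.49 TPM in ms28 and 20.8 and 34.1 TPM in B73.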

How the results depend on the processing

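The number of members, 44, moved with the thresholds. It was 173 at a germ cell fold of 2, 23 at a fold of 4, 26 at an anther floor of 10 TPM, 23 at an anther ratio between 0.67 and 1.5, 14 where every pair of anther libraries had to lie between 0.5 and 2, and 77 with centring, of which 40 were among the 44. Leaving out 1 library gave 28 to 121. The rule is no test, so only the contrast between B73 tissues could be fitted with a replicate block. Same-numbered libraries are not said to be paired, and the correlation of their deviations between B73 anthers and B73 germ cells was 0.144. With the replicate block 16 members were higher and 2 lower in B73 germ cells than in B73 anthers, against 15 and 2 without it.

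Centring gave 24 higher and 1 lower member in B73 germ cells, and a fit of the B73 libraries alone gave 12 and 1. Leaving out 1 library gave 8 to 21 higher and 1 to 2 lower. The median premeiotic rank of the members was the 6.85th percentile, between 5.74 and 8.47 in single premeiotic libraries, and 37.0 when ranked over all features of the premeiotic table, where features listed at 0 fill the lower ranks. The count of members low before meiosis was 24 under a percentile limit of 10, beside 0.778% of floor models. Under a limit of 50 it was 36, beside 12.1% of floor models. Of the 40 members that held after centring, 28 were low before meiosis. The count of members close in number was 12 within 2 numbers and 13 within 10, limits at which the share of floor models was not computed. These limits on percentile and number, and the count of 28, were chosen after the data were seen. Depth is unknown, so the error of values near 1 TPM cannot be given.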
